A study of Saccharomyces cerevisiae with 6 samples.

Results

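A respiration-deficient (petite) baker's yeast kept on xylose was compared with its respiring parent growing on the same sugar, across the genes of a yeast expression array. The comparison takes 2 of the 6 arrays of the study, 1 for each side, and subtracts the aerobic array from the petite array for every gene. Of 5656 genes measured, 5287 could be compared on these arrays, and the other 369 lay at the intensity floor on both. The petite sample is FPL-YSX3P, a mutant of strain YSX3 whose lesion the labels do not name. It was first grown in YP medium with glucose to an OD600 of 1, then moved to YP medium with xylose, and its RNA was taken 24 hours later. The aerobic sample is YSX3 grown in 200 ml of YP medium with 20 g/L xylose in a 1000 ml flask shaken at 300 rpm and harvested at an OD600 of 1. YSX3 is MATalpha and carries leu2::LEU2-XYL1, ura3::URA3-XYL2 and Ty3::NEO-XYL3, that is, the xylose reductase, xylitol dehydrogenase and xylulokinase genes of Pichia stipitis, a yeast that ferments xylose. Both groups share this engineered background. They differ in respiratory competence, in growth history and in time on xylose, and these differences cannot be told apart. A petite and an aerobic array on glucose gave the same contrast on separate samples, and an oxygen-limited array on each sugar completed the set. Those glucose samples were the petite cells harvested at an OD600 of 1 and YSX3 in 20 g/L glucose. The oxygen-limited YSX3 cultures held 50 ml with 40 g/L sugar in 125 ml flasks at 100 rpm and were taken at an OD600 of 30. For the petite cultures, sugar concentration, volume and shaking are not stated in the labels.

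Petite yeasts lack a working respiratory chain, often because mitochondrial DNA is damaged or lost, and live by fermentation. The mitochondrial genome encodes a few core subunits of cytochrome bc1, cytochrome oxidase and ATP synthase, and the nucleus encodes the rest together with the TCA cycle enzymes. In the engineered pathway xylose is reduced to xylitol, oxidised to xylulose and phosphorylated, and xylulose 5-phosphate then enters glycolysis through the pentose phosphate pathway. Oxidation of xylitol yields NADH, which respiring cells can pass to oxygen. When mitochondria fail, a retrograde signal through the Rtg proteins is known to activate genes such as CIT2 and DLD3, and the Pdr3 factor to activate drug pumps.

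Each condition had 1 array, so the xylose difference has no replicate check and no p-value. Values are scaled intensities in arbitrary units with a floor of 61.4, and differences are petite minus aerobic on the log2 scale, where 1 is 2-fold. Where the dimmer array lay at the floor the difference is a bound, which held for 488 of the genes compared. On each array 88.0% to 90.5% of genes lay above the floor. Across 215 genes with several informative probe sets, their differences in this pair had an SD of 0.53, which measures probe disagreement on the same arrays and not variation between cultures. The median over all genes compared was -0.14, and 0.10 in the values as deposited, so gene groups are set beside that median. A lower value can mean fewer expressing cells or less RNA per cell, which cannot be told apart. After scaling, 9 spiked control probe sets were 1.31 to 3.31 times as bright on the petite array as on the aerobic array, with a median of 2.02. The 5' over 3' intensity ratio of actin was 0.543 on the petite array and 0.796 on the aerobic array. The difference had a Spearman correlation of 0.03 with gene length and -0.23 with mean intensity across the 5287 genes. Genes with probe set numbers above 9000 had a median of -0.28 over 1717 genes, against -0.08 for the rest. The part of these measures in the results was not tested.

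On xylose 446 genes lay at least 2-fold above the parent in petite cells, 8.44% of those compared, and 712 lay at least 2-fold below it, 13.5%. The later counts of list members past 2-fold on xylose are to be read beside these shares. Higher genes made up 38.5% of the genes past 2-fold. The split depends on the scaling, with 654 higher and 417 lower (61.1% higher) in the values as deposited and 560 higher and 534 lower (51.2% higher) with the all-gene median subtracted. Of 44 gene lists, 31 had a median below 0. The 7 lists at -1 or below were those of ATP synthase, complexes III and IV, histones, the TCA cycle, alpha-cell genes, uptake of acetate, lactate and ammonium, and ergosterol. The 5 lists at 0.5 or above were aryl-alcohol dehydrogenases, stationary phase regulators, hexose transporters, thiamine and a-cell genes. Some of these lists were small, with 3 aryl-alcohol dehydrogenase, 4 histone, 5 alpha-cell and 5 a-cell genes compared.

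**Figure D1:**
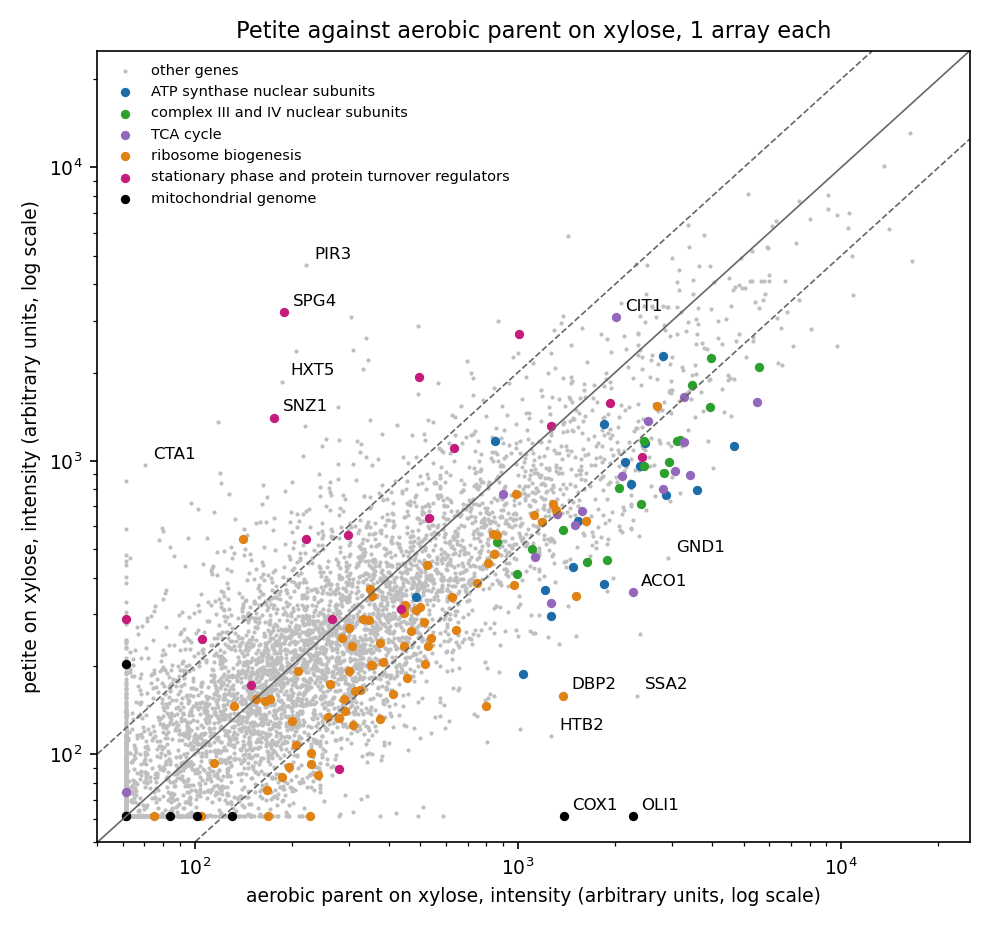
Intensity of each gene on the petite array (vertical, arbitrary units, log scale) against the aerobic parent (horizontal, arbitrary units, log scale) on xylose; the solid line marks equality, dashed lines mark 2-fold, and coloured points are members of 6 gene lists. OLI1 and COX1 sit at the floor in petite cells against 2268 and 1385 in the parent, and PIR3 reaches 4645 in petite cells against 221 in the parent.

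The labelled respiration defect was first set against the transcripts of the mitochondrial genome. OLI1, which encodes the proteolipid ring subunit of ATP synthase, lay at the floor in petite cells, where its unfloored value was 18.2, against 2268 in the aerobic parent. It was thus at least 37.0-fold lower, and it also lay at the floor in petite cells on glucose, against 2300 in the aerobic parent there. A second OLI1 probe set, at 7.9 in petite cells and 9.7 in the parent, was below the floor on both arrays. COX1, the catalytic subunit of cytochrome oxidase, had 39.6 in petite cells and 1385 in the parent by its brightest probe set, a bound of -4.50. The other COX1 probe sets had 8.6 and 60.8 in petite cells, against 111 and 85.3 in the parent. COB (cytochrome b) was at the floor in petite cells and at 130 in the parent, ATP8 at the floor against 102, and ATP6 at the floor against 83.9. These 5 transcripts lay at the floor in petite cells and above it in the parent. COX2, a further oxidase subunit, and VAR1, a mitochondrial ribosomal protein, were at the floor on both arrays.

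COX3, the third core oxidase subunit, went the other way, with 203 in petite cells against 43.4 in the parent before the floor, a difference of at least 1.73. On glucose its single probe set also read higher in petite cells, at 136 against 57.6. Among 34 probe sets that match only mitochondrial genes, 29 were lower in petite cells than in the parent on xylose. The share of all probe sets lower there was not counted. Those of the 29 that were not above the floor in the parent lay below it on both arrays, where the order of values carries little weight. The cDNA was primed by oligo(dT), and how fully that captures mitochondrial transcripts was not tested. The floor was the 25th percentile of all yeast probe set values over the arrays. Of the 34, those above it were 1 in petite cells on xylose, that of COX3, and 17 in the parent. On glucose the numbers were 2 in petite cells and 15 in the parent, and the oxygen-limited arrays had 14 on xylose and 10 on glucose. The brightest mitochondrial probe set of petite cells on xylose after COX3 read 60.8.

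**Figure D2:**
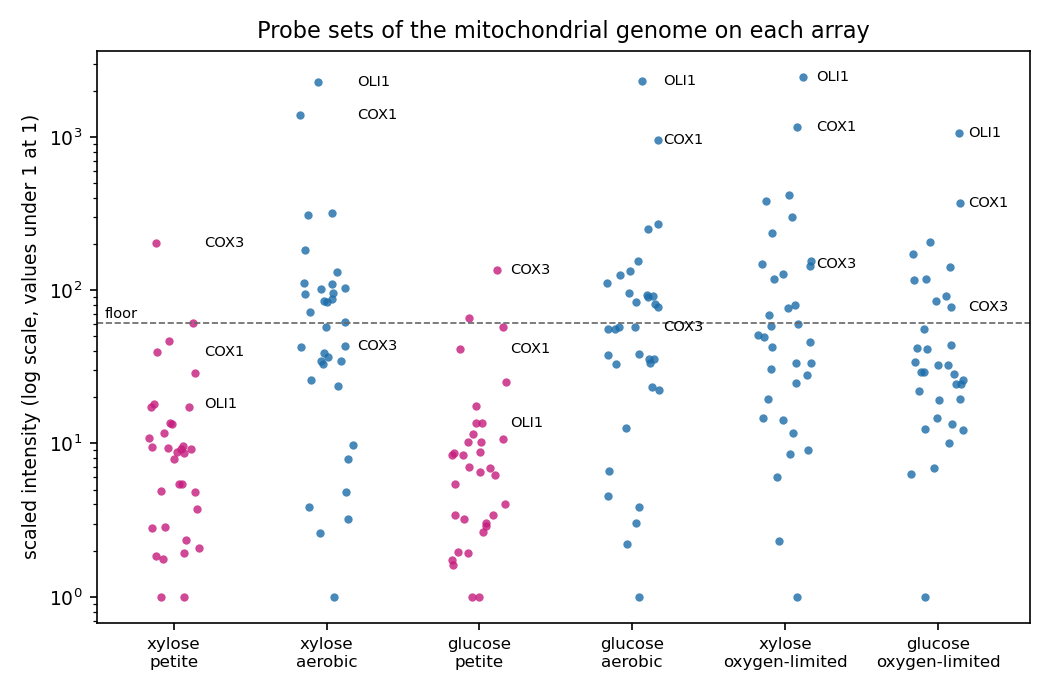
Scaled intensity before the floor (vertical, arbitrary units, log scale, values under 1 drawn at 1) of 34 probe sets of the mitochondrial genome on each of the 6 arrays, with the floor dashed and 3 genes named. Above the floor are 1 probe set in petite cells on xylose against 17 in the aerobic parent.

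Most nuclear partners of those subunits were lower in petite cells as well. Of 18 nuclear genes of complexes III and IV and cytochrome c, 15 were at least 2-fold lower and 0 higher on xylose, each of the 18 lay below 0, and the median was -1.36. COX6, a cytochrome oxidase subunit, had 460 in petite cells against 1886 in the parent, a difference of -2.03. COX4, another oxidase subunit, had 453 against 1640, and QCR6, a subunit of the bc1 complex, 712 against 2397. The members nearest to the parent were COX7 at -0.93, CYC1 (cytochrome c) at -0.82 and CYT1 (cytochrome c1) at -0.71. COX5B, a hypoxic oxidase isoform outside this list, went the other way, at 195 in petite cells against 79.2 in the parent. A control probe set for RIP1, of complex III, read 1100 in petite cells against 1164 in the parent on xylose, and 502 against 1888 on glucose. On glucose 17 of the 18 were at least 2-fold lower, with a median of -1.42.

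ATP synthase genes had the lowest list median, -1.42 over 17 genes, with 13 at least 2-fold lower and 0 higher. INH1, the inhibitor of the enzyme's reverse reaction, had 188 in petite cells against 1037 in the parent, a difference of -2.47. The catalytic-core subunits ATP3, ATP1 and ATP2 had 379, 795 and 1127 in petite cells, against 1842, 3594 and 4680 in the parent. Their differences were -2.28, -2.18 and -2.05. STF2, a stabilising factor of the inhibited enzyme, was the one member above 0, at 0.47, and ATP15 was at -0.30. Of 7 NADH and lactate dehydrogenase genes, 1 was at least 2-fold lower and 1 higher. NDI1, the inner NADH dehydrogenase that feeds electrons to ubiquinone, had 366 in petite cells against 1215 in the parent. NDE2, an external NADH dehydrogenase, had 302 in petite cells against 99.8 in the parent, while its paralog NDE1 had 1750 against 2960. The lactate dehydrogenase CYB2 was close to the parent, at 1106 against 1227.

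For assembly, translation and import in mitochondria the list medians were nearer to that of all genes. Among all genes compared, 13.5% were at least 2-fold lower and 8.44% higher. The 35 respiratory assembly factors compared had a median of -0.15, and 0.11 in the values as deposited, with 2 at least 2-fold higher and 3 lower. NCA3, which affects mitochondrial mRNA maturation for ATP synthase, had 2871 in petite cells against 492 in the parent, and PET54, a translational activator of COX3, 1034 against 442. NCA2, COX16 and COX10 were the lower members, at -1.30, -1.06 and -1.02. The 71 genes for mitochondrial ribosomal proteins had a median of -0.39, with 4 at least 2-fold lower, among them MRP51 at -1.30, and 1 higher, PET123 at 1.52. For 36 import and chaperone genes it was -0.58, with 6 lower, led by the peptidase OCT1 at -1.81 or below and the receptor TOM70 at -1.65, and 0 higher. Of 24 mitochondrial carriers, with a median of -0.20 and 0.051 in the values as deposited, 6 were at least 2-fold lower and 2 higher. SFC1, the succinate and fumarate carrier, was at the floor in petite cells against 588 in the parent. YHM2, a citrate and oxoglutarate carrier, had 297 in petite cells against 1163 in the parent.

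TCA cycle transcripts were lower in petite cells on xylose, except for the citrate synthases CIT1 and CIT3, of which CIT3 was at the floor in the parent. Of 17 genes, 12 were at least 2-fold lower and 0 higher, with a median of -1.27. ACO1, which encodes aconitase, had 358 in petite cells against 2266 in the parent, a difference of -2.66. IDP1, the mitochondrial NADP-dependent isocitrate dehydrogenase, had 327 against 1270, and SDH1, the flavoprotein of succinate dehydrogenase, 893 against 3412. The IDH2 subunit of the NAD-dependent isocitrate dehydrogenase had 803 in petite cells against 2820 in the parent, whereas its IDH1 partner had 769 against 898. Malate dehydrogenase MDH1 had 1586 against 5512. CIT1 was above the parent, with 3096 in petite cells against 2019.

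Some of these genes read otherwise on glucose. ACO1 had 1414 in petite cells against 1206 in the aerobic parent there, and IDH2 had 2205 against 2144. CIT1 had 976 in petite cells on glucose against 2294 in the parent. The list median on glucose was -0.65, with 4 genes at least 2-fold lower. With 1 array per condition the difference between sugars could not be tested.

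Genes of the retrograde response did not share a direction on xylose. Of 17 compared, 2 were at least 2-fold higher and 4 lower, with a median of -0.14 that became 0.12 in the values as deposited. The peroxisomal citrate synthase CIT2, the usual reporter of the pathway, had 1333 in petite cells against 1381 in the parent. DLD3, which interconverts 2-hydroxyglutarate and oxoglutarate, had 135 against 405, a difference of -1.59. Pyruvate carboxylase PYC1 had 1365 in petite cells and 1449 in the parent. Of the regulators, RTG2 was at -0.25, RTG3 at 0.67 and RTG1 at the floor on both arrays, and LST8, a TOR complex subunit placed in the pathway, had 972 in petite cells against 308 in the parent. On glucose CIT2 had 669 in petite cells against 1599 in the parent, and PYC1 had 262 against 898.

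The drug pump genes linked to mitochondrial loss also differed among themselves. PDR10 and PDR15, both ABC transporters, had 768 and 306 in petite cells, against 127 and 91.7 in the parent. PDR3, the transcription factor, had 186 in petite cells against 73.2 in the parent. PDR5, the main multidrug pump, was lower, at 1029 against 1791, and PDR16, a lipid transfer protein, at 178 against 479. Over 18 genes compared the median was -0.07, and 0.19 in the values as deposited, with 5 at least 2-fold higher and 2 lower.

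Genes of xylose entry and the pentose phosphate pathway differed in both directions. XKS1, the yeast's own xylulokinase, had 112 in petite cells against 274 in the parent, a difference of -1.29. In the pentose phosphate pathway 6 of 13 genes were at least 2-fold lower and 3 higher. GND1, the main 6-phosphogluconate dehydrogenase, had 467 in petite cells against 2910 in the parent, a difference of -2.64. SOL3, a 6-phosphogluconolactonase, had 253 against 1003. Of the non-oxidative enzymes that interconvert pentose phosphates, TAL1, TKL1, RKI1 and RPE1 were each at least 2-fold lower. The paralogs TKL2 and NQM1 were not. Transaldolase TAL1 had 658 in petite cells against 2105 in the parent, transketolase TKL1 had 510 against 1524, the isomerase RKI1 83.6 against 223 and the epimerase RPE1 518 against 1046. The second transketolase gene TKL2 had 492 in petite cells against 506 in the parent, and the transaldolase paralog NQM1 had 676 against 222.

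The 3 pathway members at least 2-fold higher were NQM1 at 1.61, SOL1 at 1.04 and GND2, the minor dehydrogenase, at 1.03. ZWF1, which commits glucose 6-phosphate to the pathway, had 1438 in petite cells against 925 in the parent. The list median of -0.21 lay near that of all genes and became 0.041 in the values as deposited. GND1 and GND2, like NQM1 and TAL1, are paralogs, and cross-hybridisation was not tested. On glucose the lower members were nearer to the parent, with GND1 at -0.40, TAL1 at -0.65 and TKL1 at -0.52, and SOL3 at 0.52. Among 6 yeast genes that can act on xylose or xylitol, 1 was at least 2-fold lower, XKS1, and 0 higher. The aldose reductase GRE3 was at -0.37 and the sorbitol dehydrogenase homolog XYL2 at 0.42. Their median of -0.14 became 0.12 in the values as deposited. The integration markers URA3 and LEU2 were at -0.64 and 0.40, and LEU2 was at -0.51 with the trend along probe set numbers removed. A control probe set for URA3 went the other way, with 2083 in petite cells against 1190 in the parent.

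**Figure D3:**
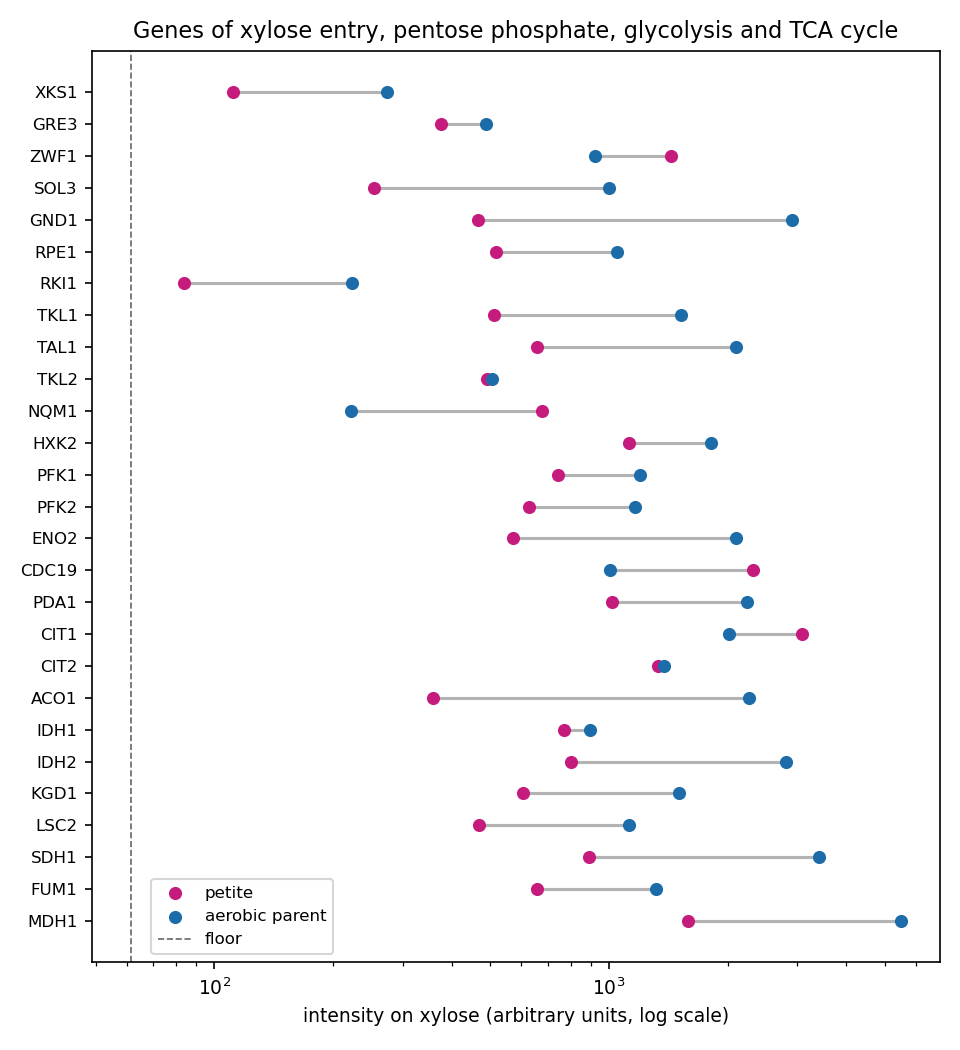
Intensity on xylose (horizontal, arbitrary units, log scale) of genes of xylose entry, the pentose phosphate pathway, glycolysis and the TCA cycle in petite cells and in the aerobic parent, joined by a line, with the floor dashed. GND1 reads 467 in petite cells against 2910 in the parent and ACO1 358 against 2266, whereas ZWF1, NQM1, CDC19 and CIT1 read higher in petite cells.

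Hexose transporter genes were mostly higher in petite cells on xylose. Of 20 listed 14 were measured and 13 compared. Of these 13, 5 were at least 2-fold higher and 0 lower, with a median of 0.65. HXT5, a transporter of non-growing and slow-growing cells, had 1861 in petite cells against 187 in the parent, a difference of 3.31. The low-affinity transporter HXT1 had 245 against 74.4, HXT4 459 against 150, HXT3 583 against 263 and HXT2 2949 against 1357. The near-identical high-affinity HXT7 and HXT6, which their probe sets need not tell apart, had 5349 and 5881 in petite cells, against 3385 and 3755 in the parent. On glucose the list median was 0.17. HXT5, HXT6 and HXT7 were above 0 there, whereas HXT1, HXT2, HXT3 and HXT4 were at -1.18, -0.57, -0.18 and -0.08. Among 19 glucose-repressed regulators and sugar genes, 3 reached 2-fold above the parent and 0 below, with a median of 0.25. They were the repressor MIG3, at 320 in petite cells against 75.5 in the parent, REG2 at 1.28 and MTH1 at 1.18. HXK1 was at 0.46 and HAP4, the activator of respiratory genes, at 0.30.

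Glycolytic genes stayed mostly within 2-fold of the parent. Of 18, 1 was at least 2-fold higher and 2 lower, with a median of -0.25 that became 0.00449 in the values as deposited. Enolase ENO2 had 572 in petite cells against 2099 in the parent, and pyruvate kinase CDC19 had 2326 against 1005. GPM3 was the other lower member, at -1.09. The hexokinase HXK2 was at -0.69 and GLK1 at -0.27. In ethanol and acetate metabolism 7 of 20 genes were at least 2-fold lower and 1 higher, with a median of -0.35. ACH1, a CoA transferase that acts on acetate, had 237 in petite cells against 1346 in the parent, and the acetyl-CoA synthetase ACS2 had 730 against 2948. PDX1, a pyruvate dehydrogenase component, was the higher member, at 1327 against 424. ADH1 and PDC1 were both at -0.35, and ADH2, the ethanol-oxidising dehydrogenase, had 1051 in petite cells against 1612 in the parent.

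Glycerol synthesis is an outlet for NADH in fermenting yeast, and most glycerol genes stayed within 2-fold of the parent on xylose. Of 11, 1 was at least 2-fold higher and 0 lower, with a median of -0.55. DAK2, a dihydroxyacetone kinase, was the higher member, at 909 in petite cells against 120 in the parent. The glycerol 3-phosphate dehydrogenases GPD1 and GPD2 had 434 and 145 in petite cells, against 635 and 254 in the parent, and the phosphatase GPP2 was at -0.99. GUT2, which oxidises glycerol 3-phosphate in mitochondria, was at -0.72. For the glyoxylate cycle and gluconeogenesis, 2 of 14 genes were higher and 2 lower, with a median of 0.06. The lower members were SFC1 and isocitrate lyase ICL1, at 124 in petite cells against 289 in the parent.

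Transcripts for ribosomes and their assembly were mostly lower in petite cells. The 71 ribosome biogenesis genes had a median of -0.86, with 68 below 0, 23 at least 2-fold lower and 1 higher. DBP2, an RNA helicase, had 158 in petite cells against 1381 in the parent, and the small nucleolar ribonucleoprotein genes NOP56 and GAR1 had 146 and 346, against 798 and 1513. The higher member was RLP7, at 542 against 141. Cytosolic ribosomal protein genes numbered 81, with a median of -0.68, 72 below 0, 23 at least 2-fold lower and 0 higher. Their lowest members were RPL9A and RPL21B at -1.98 each, and many have a near-identical paralog, so single members are uncertain. For 26 RNA polymerase I and III genes the median was -0.52, with 8 at least 2-fold lower and 0 higher, among them RPA12 at -1.73.

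Amino acid and ergosterol genes were also on the lower side. Of 62 amino acid biosynthesis genes 26 were at least 2-fold lower and 1 higher, with a median of -0.88. The aspartate kinase HOM3 had 63.0 in petite cells against 420 in the parent, and HIS1, the first enzyme of histidine synthesis, had 156 against 807. The glutamate dehydrogenase GDH1 had 397 in petite cells against 1967 in the parent, while its paralog GDH3 was the higher member, at 719 against 97.8. Every one of 24 ergosterol genes was below 0, the nearest at -0.06, with 13 at least 2-fold lower and a median of -1.04. In the values as deposited the median was -0.79, and how many members stayed below 0 was not counted. ERG26, ERG20 and ERG6 had 150, 681 and 519 in petite cells, against 576, 2500 and 1887 in the parent. The ergosterol median on glucose was -0.20, with 0 genes past 2-fold in either direction.

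Cell division and cell wall lists had medians below that of all genes. Of 10 histone genes listed 4 were measured, with a median of -1.28, and 2 of them were at least 2-fold lower and 0 higher. HTB2, a histone H2B gene, had 115 in petite cells against 1263 in the parent, a difference of -3.45, and its paralog HTB1 had 700 against 2239. The H2A variant gene HTZ1 had 383 in petite cells against 703 in the parent, whereas the linker histone gene HHO1 was higher, at 579 against 298. Of 31 cyclin and cell cycle genes 9 were at least 2-fold lower and 1 higher, with a median of -0.61. RNR1, the large subunit of ribonucleotide reductase, had 137 in petite cells against 732 in the parent, and the cyclin PCL1 had 72.3 against 292. RNR3, the damage-inducible large subunit, was the higher member, at 316 against 140. Among 28 cell wall genes 10 were at least 2-fold lower and 2 higher, with a median of -0.68. PIR3, a covalently bound wall protein, had 4645 in petite cells against 221 in the parent, and GSC2, a glucan synthase subunit, had 1042 against 217. The probe sets of GSC2 disagreed, and their mean gave a difference of 0.43. The mannoprotein TIP1 had 777 in petite cells against 3167 in the parent.

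Stationary phase, autophagy and peroxisomal genes lay on the higher side in petite cells. Of 17 stationary phase and protein turnover genes, 7 reached 2-fold above the parent and 2 below, with a median of 0.80. SPG4, needed for survival in stationary phase at high temperature, had 3220 in petite cells against 189 in the parent. SNZ1, of vitamin B6 synthesis, had 1404 against 176, and the polyubiquitin gene UBI4 2696 against 1007. The lower members were CPS1, a vacuolar carboxypeptidase, at -1.66 and the wall-related YGP1 at -1.24.

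Autophagy genes followed, with 6 of 23 at least 2-fold higher, 1 lower and a median of 0.45. ATG3, ATG8 and ATG1, of the conjugation machinery and the initiating kinase, had 634, 849 and 298 in petite cells, against 133, 200 and 89.6 in the parent. ATG27 was the lower member, at -1.51. For fatty acid oxidation and peroxisomes 6 of 31 genes lay at least 2-fold above the parent and 0 below, with a median of 0.29. CTA1, the peroxisomal catalase, had 965 in petite cells against 70.2 in the parent, the thiolase POT1 had 712 against 162 and the dienoyl-CoA reductase SPS19 1143 against 327.

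Stress genes went both ways, as genes in general did. Of all genes compared on xylose, 8.44% lay at least 2-fold above the parent and 13.5% below. Of 30 heat shock and general stress genes, 8 lay at least 2-fold above the parent and 5 below, with a median of 0.11. GRE1, a hydrophilin, had 585 in petite cells and lay at the floor in the parent, and the small chaperone HSP26 had 1313 against 220. The constitutive Hsp70 gene SSA2 had 158 in petite cells against 2336 in the parent, a difference of -3.88, and its near-identical paralog SSA1 had 4787 against 16569. The Hsp70 partner SSE1 was at -1.71. For 28 oxidative stress genes the median was 0.09, with 4 higher and 3 lower. They included GTT2, a glutathione transferase, at 538 in petite cells against 77.5 in the parent, and thioredoxin TRX1 at 588 against 2244. For trehalose and glycogen 3 of 21 genes lay at least 2-fold above the parent and 2 below, with a median of -0.30. IGD1, an inhibitor of glycogen debranching, had 1176 in petite cells against 281 in the parent, GAC1, a glycogen synthase regulator, 420 against 113, and UGP1, which makes UDP-glucose, 920 against 2781.

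The 12 highest and 12 lowest differences among brighter named genes also held genes of other kinds. YHK8, a presumed transporter, had 851 in petite cells and lay at the floor in the parent. AQY3, an aquaglyceroporin relative, had 2367 against 205, the metallothionein CRS5 1359 against 119 and the sulfiredoxin SRX1 3104 against 305. The nucleolar RNA gene SNR4 had 2632 in petite cells against 340 in the parent, and how fully oligo(dT) priming captures such RNAs was not tested. THI21, of thiamine synthesis, ranked among the highest at 2.96 or above, and the alpha-factor gene MF(ALPHA)1 among the lowest at -3.21. On the lower side the proline permease PUT4 had 122 in petite cells against 1015 in the parent. INA1 was at the floor against 491, and HAM1, which hydrolyses damaged nucleotides, had 65.8 against 508. FRE1, a ferric and cupric reductase, had 110 against 800.

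The mating type given in the labels was compared with its marker genes. Of 5 alpha-cell genes STE3, the a-factor receptor, had 736 in petite cells against 1542 in the parent, and MF(ALPHA)1, an alpha-factor gene, 258 against 2380. AFB1 and MF(ALPHA)2 were also at least 2-fold lower, at -2.19 and -1.13, and the agglutinin SAG1 was at 1.29. On glucose MF(ALPHA)1 had 3314 in petite cells against 3561 in the parent. Of 6 a-cell genes AGA2 was at the floor on both arrays, and BAR1 and STE2 read 63.3 and 89.2 in petite cells and lay at the floor in the parent. STE6 and MFA2 were at 131 and 154 in petite cells, against 77.8 and 135 in the parent, while MFA1 read 762 against 486.

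The glucose pair was used to see which differences recurred on separate arrays. The actin 5' over 3' ratio was 0.543 and 0.465 on the petite arrays, below each of the other 4 arrays, which had 0.619 to 0.930. Its part in recurrence and in the fit over both sugars was not tested. Across 5195 genes compared on both sugars the differences had a Pearson correlation of 0.65 and a Spearman correlation of 0.67, given as a description across genes, which are not independent replicates. The petite arrays of both pairs share the mutant strain, and the aerobic arrays the parent strain. On glucose 249 of 5272 genes (4.72%) lay at least 2-fold above the parent in petite cells and 266 (5.05%) at least 2-fold below it. Both pairs had 125 genes at least 2-fold higher, which are 28.7% of the 435 on xylose and 50.8% of the 246 on glucose. They had 169 at least 2-fold lower, which are 23.8% of the 711 on xylose and 63.8% of the 265 on glucose. Of the 435 genes higher on xylose 379 were above 0 on glucose, and of the 711 lower 665 were below 0. The median over all genes compared on glucose was -0.12, so values below 0 were the more common there. The share of all genes on each side of 0 was not counted. The opposite 2-fold difference on glucose was seen for 8 of the higher genes and for 2 of the lower, ALA1 and GPH1.

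HTB2 recurred on glucose, with 126 in petite cells against 1239 in the parent, and so did ATP3, with 369 against 1373. PUT4 did not recur, with 141 in petite cells on glucose against 99.3 in the parent. PHO84, the high-affinity phosphate transporter, had 2966 in petite cells against 2470 in the parent on xylose, and 218 against 2197 on glucose. TDH1, a glyceraldehyde phosphate dehydrogenase, had 638 against 489 on xylose, and 1419 in petite cells against 145 in the parent on glucose. ADH2 likewise had 1342 in petite cells against 143 in the parent on glucose.

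**Figure D4:**
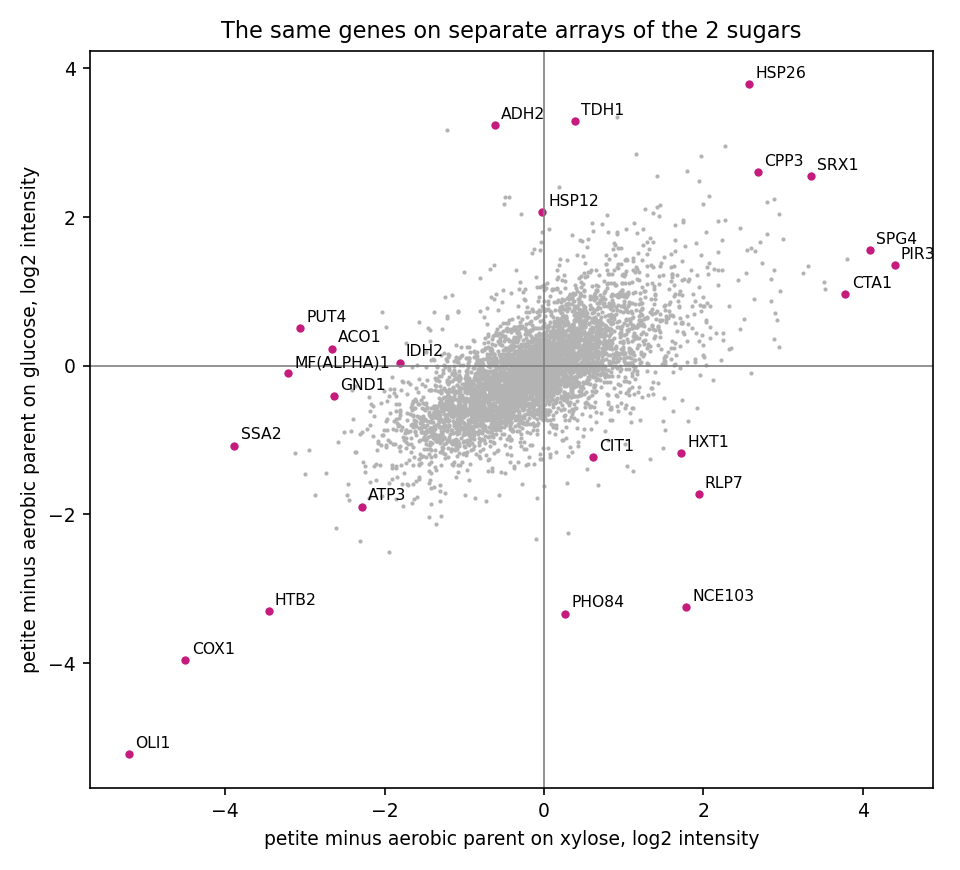
Petite minus aerobic difference on glucose (vertical, log2 scale) against the same difference on xylose (horizontal, log2 scale), each point a gene compared in both pairs, with some genes named. OLI1, COX1 and HTB2 sit low in both pairs, whereas NCE103, RLP7 and HXT1 sit to the right of 0 on xylose and below 0 on glucose.

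A test of the mean petite difference over both sugars used all 6 arrays. Spiked controls on the oxygen-limited arrays were partly unlike the rest. The control CreX-3 read 281 on xylose and 279 on glucose there, against 1834 to 3732 on the other arrays. The control BioB-M read 307 and 341, against 255 to 334. The part of this in the fit was not tested. Limma with additive terms for background and sugar called 1 gene higher and 1 lower of 5462 at an adjusted p under 0.05, 0.0183% in each direction, and at an unadjusted p under 0.05 it had 636 higher (11.6%) and 1211 lower (22.2%). OLI1 fell, with a fitted difference of -5.22 and an SE of 0.35 (limma adjusted p = 0.048, lower in 2 of 2 pairs). Its petite values were set to the same floor on both sugars, from 18.2 on xylose and 13.7 on glucose. The size, the SE and the p-value thus all depend on the floor. CPP3 rose, by 2.65 with an SE of 0.17 (limma adjusted p = 0.048, higher in 2 of 2 pairs). It had 2203 in petite cells against 343 in the parent on xylose, and 853 against 140 on glucose. HTB2, COX1 and SRX1 missed the threshold, with fitted differences of -3.38, -4.23 and 2.95 and the same limma adjusted p of 0.0515. The petite values of COX1 were also at the floor on both sugars. These calls depended on the processing. Limma called 0 genes in either direction with quantile normalization (unadjusted 661 higher and 918 lower), after raising the floor to the 40th percentile (482 and 1137) and with the mean over probe sets (619 and 1230). Without the oxygen-limited arrays it called 0 higher and 1 lower. The other alternatives (the deposited scaling, a 10th percentile floor, the running median removed, limma's variance trend) gave 133 to 219 higher and 31 to 433 lower. In the processing used, ACO1, at -1.22 with a limma adjusted p of 0.334, and SSA2, at -2.48 with 0.073, missed it as well.

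Members of the lists were counted in the same fit at an unadjusted p under 0.05, a level at which 22.2% of all genes were lower and 11.6% higher. For complexes III and IV 18 of 18 were lower, with a median fitted difference of -1.40. For ATP synthase 13 of 17 were lower and 1 higher, and for the TCA cycle 8 of 17 were lower. Ribosome biogenesis had 49 of 71 lower and cytosolic ribosomal proteins 43 of 81. Ergosterol had 6 of 24 lower, near the share of all genes. Hexose transporters had 1 of 13 higher, HXT5, a share below that of all genes. Stationary phase genes had 8 of 17 higher and 1 lower. None of these members passed after adjustment. With 1 array per condition, the error term of the fit holds how far the background differences vary between the sugars, mixed with any sample noise. The p-values thus do not measure the spread between cultures of a condition, and the labels do not describe separate cultures. A gene whose petite difference depends on the sugar gets a larger p-value.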

How the data were processed

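Messenger RNA was measured on 6 Affymetrix yeast arrays, 1 per condition, with cDNA primed by oligo(dT), per the labels' protocols. The authors deposited linear intensities per probe set. Their software, scaling and genome build are not given in the sources used. The table holds 9335 probe sets, 60 of them controls and 1 empty. Among 9274 yeast probe sets 6504 had 1 gene symbol, 328 several and 2442 none, which gave 5656 genes, 315 of them with several probe sets.

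The deposited intensities were multiplied so that the arrays share a median, raised to a floor at the 25th percentile where below it, and transformed to log2. The brightest probe set stood for its gene. Limma 3.58.1 in R 4.3.3 fitted background and sugar over 6 arrays with 2 residual degrees of freedom and Benjamini-Hochberg adjustment. The fit was run on simulated data with the same shift on both sugars and equal noise for all genes. That setting is simpler than the real arrays, so the run checks the code and not the calls. Samples were grouped by their titles.

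The comparison, the 44 lists and the tests were chosen with earlier results of these data known. Named genes are the 12 highest and 12 lowest among those reaching 4 times the floor, the 3 largest of each list with members at least 2-fold against its median, called genes and a set of respiratory and sugar genes. Other list members were named after their values were seen. The alternatives comprised unscaled deposited values, quantile normalization, other floors, the mean over probe sets, a running median (window 201) removed along probe set numbers, a 3-fold threshold, a variance trend and leaving out the oxygen-limited arrays. Leaving out probe set numbers above 9000 and subtracting the all-gene median were chosen after seeing the data. The number of arrays limits the precision. Promoter sequences, the XYL1, XYL2 and XYL3 transcripts and probe sets without 1 symbol were not analysed here.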

Additional observations from a re-analysis of the deposited data

Results flagged for a closer look

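Of the genes compared in both pairs, 8 were at least 2-fold higher in petite cells on xylose and at least 2-fold lower on glucose, and 2 the reverse. This difference between sugars was not tested. HXT1, the low-affinity hexose transporter, differed by 1.72 on xylose, and on glucose by -1.18, with 830 in petite cells against 1882 in the parent. RLP7, of ribosome biogenesis, differed by 1.94 on xylose and by -1.73 on glucose, with 210 in petite cells against 698 in the parent. NCE103, a carbonic anhydrase, differed by 1.78 on xylose, with 2985 in petite cells against 869 in the parent. On glucose NCE103 differed by -3.25, with 253 in petite cells against 2403 in the parent. The other higher genes were CIN5, a stress transcription factor, at 1.49 on xylose, the ribosome rescue factor DOM34 at 1.33, the small nuclear RNA gene SNR19 at 1.11, SOL1 at 1.04 and the kinase gene SKS1 at 1.02. Their differences on glucose were -1.11, -1.26, -1.42, -1.34 and -1.05. How fully oligo(dT) priming captures a small nuclear RNA such as SNR19 was not tested.

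On the lower side ALA1, the alanyl-tRNA synthetase, differed by -1.22 on xylose, with 487 in petite cells against 1132 in the parent. On glucose it differed by 3.17, with 684 in petite cells against 76.2 in the parent. GPH1, the glycogen phosphorylase, differed by -1.003 on xylose and by 1.26 on glucose.

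The spiked controls lie outside the gene comparison. After scaling, their median fold of petite over aerobic was 2.02 on xylose and 1.75 on glucose.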

How the results depend on the processing

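Counts of genes called by limma over both sugars depended on the processing, and the adjusted p of the leading genes lay close to 0.05. As 1 higher and 1 lower in the processing used, they became 168 and 31 in the values as deposited, 219 and 340 with the floor at the 10th percentile, 210 and 433 with the running median removed, and 133 and 230 with a variance trend. They were 0 and 0 with quantile normalization (unadjusted p under 0.05: 661 and 918), 0 and 0 with the floor at the 40th percentile (482 and 1137) and 0 and 0 with the mean over probe sets (619 and 1230). Without the oxygen-limited arrays 0 were higher (577 unadjusted). The xylose count of genes at least 2-fold lower was 417 of 5276 in the values as deposited, against 712 of 5287 genes in the processing used. It was 441 with probe set numbers above 9000 left out, where 3570 genes were compared. At least 3-fold, 155 were higher and 172 lower. The cause of the shifts in the limma counts was not tested.

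List medians near 0 reversed. In the values as deposited they became 0.12 for the retrograde response, 0.11 for assembly factors, 0.00449 for glycolysis, 0.0409 for the pentose phosphate pathway, 0.12 for xylose genes, 0.14 for strain markers, 0.13 for sulfate and methionine, 0.19 for drug response, 0.21 for iron, 0.0506 for mitochondrial carriers and 0.18 for nitrogen. With quantile normalization they became 0.14 for the retrograde response, 0.000856 for assembly factors, 0.0379 for glycolysis, 0.0575 for xylose genes, 0.15 for strain markers and 0.0462 for drug response. The phosphate median became -0.14 with the floor at the 40th percentile, and that of drug response 0.16 with the running median removed. Counting each list once under each alternative, another 242 medians moved by less than the probe set SD of 0.53 and 3 by more without turning. Of 230 named genes, 0 of the 183 past 2-fold changed sign and 9 of the rest did, among them CIT2, at 0.20 in the values as deposited. OLI1 and COX1 were at -2.60 and -1.94 with the mean over probe sets, and COX3 at 0.89 with the floor at the 40th percentile.

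The limma fit sets petite against aerobic arrays within each sugar through its sugar term. The labels give no replicate numbers to pair by, and each condition has 1 array, so no replicate was left out. The xylose differences have no measure of variation between cultures, and genes at the floor have only bounds.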

Other observations

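Nutrient genes of other pathways gave mixed pictures on xylose, where 8.44% of all genes compared were at least 2-fold higher and 13.5% lower. Iron and copper genes went in both directions, with 5 of 29 at least 2-fold higher and 6 lower. Their median was -0.04, or 0.21 in the values as deposited. The iron oxidase FET3 had 360 in petite cells against 1885 in the parent, and the copper transporter CTR1 had 252 against 1244, whereas the siderophore transporter ARN2 had 583 against 175. For phosphate, 6 of 18 genes were 2-fold higher or more and 0 lower, with a median of 0.06, or -0.14 with the floor at the 40th percentile. SPL2, a regulator of phosphate uptake, had 509 in petite cells against 84.0 in the parent. Of 26 sulfate and methionine genes 4 were higher and 4 lower, with a median of -0.12, or 0.13 in the values as deposited. MET32, a regulator of the pathway, had 257 in petite cells against 66.7 in the parent, and CYS3, of cysteine synthesis, 541 against 1907. For 32 nitrogen genes, with a median of -0.07 and 0.18 in the values as deposited, 6 were higher and 3 lower, among them the proline oxidase PUT1 at 1844 against 567 and the arginase CAR1 at 714 against 2245.

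Some smaller lists lay on the higher side, some split and 1 lay lower. The aryl-alcohol dehydrogenase genes AAD4 and AAD10, whose family members are near-identical, had 2392 and 668 in petite cells, against 310 and 115 in the parent. AAD14, the remaining member compared, was at 0.65. For thiamine, 4 of 11 genes were 2-fold higher or more and 0 lower, with a median of 0.59. THI21, of pyrimidine precursor synthesis, had 476 in petite cells and lay at the floor in the parent. Among 30 hypoxic and heme-linked genes, with a median of 0.13, 5 were higher and 5 lower. COX5B, the hypoxic isoform of an oxidase subunit, had 195 in petite cells against 79.2 in the parent, and its aerobic counterpart COX5A had 961 against 2461. Of 9 genes for acetate, lactate and ammonium uptake 5 were lower and 1 higher, with a median of -1.09, and ATO3 was at 433 in petite cells against 1411 in the parent and ATO2 at 1017 against 369.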
